A study of Mus musculus with 6 samples.

Results

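Parp9, Parp10, Parp11, Parp12, Parp14, Dtx3l, Zc3hav1 and Helz2 were examined in MLO-Y4 cells, a murine osteocyte-like cell line, after low-intensity pulsed ultrasound (LIPUS). The genes were taken by symbol from the deposited table of the comparison. All 8 were found among its 53797 genes. LIPUS was given to 3 cultures for 20 min at 30 mW/cm2 and 1.5 MHz, and 3 untreated cultures served as Control. According to the methods, RNA was isolated 30 min after stimulation, and LIPUS and Control wells shared a culture plate, in which the transducers under the Control wells were unplugged. No genotype or drug differed between the groups.

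The deposited table gives a single pooled FPKM (fragments scaled by the exonic length of the gene and by the number of mapped fragments of the library) for each group. It holds no value of a single library, so no SD is given, no test across cultures was made, and every difference below is a description of 2 pooled values. The study describes a Control culture that stood apart from the other Control cultures. How much that culture or any other contributes to a pooled value could not be measured here. Cuffdiff, the comparison program, marked 8145 genes as tested (status OK), and all 8 genes of interest were among them. This status means that the locus held enough fragments for a comparison and says nothing about its outcome. Of the osteocyte markers, Pdpn (295 FPKM in Control), Cd44 (200 FPKM) and Gja1 (176 FPKM) were high and Dmp1 was at 3.04 FPKM. Sost, Mepe and Fgf23 were listed at 0 in both groups, and Phex was listed at 0 in Control. Of 6 osteoblast markers 3 were tested, and all 3 had a lower FPKM in LIPUS, beside 49.2% of all tested genes. Runx2 (24.4 FPKM in Control and 14.8 FPKM in LIPUS) and Alpl (293 and 190 FPKM) were lower by at least 1.5-fold. This stands beside 4.71% of all tested genes, and Col1a1 (891 and 731 FPKM) was lower by less. The 3 osteoblast markers without a test differed in direction. Sp7 was at 5.86 FPKM in Control and 3.75 FPKM in LIPUS, and Bglap was at 0 and 1.58 FPKM. Ibsp was listed at 0 in both groups. Of 4 tested osteocyte markers, 3 had a higher FPKM in LIPUS, beside 50.8% of all tested genes. Dmp1, at 7.65 FPKM in LIPUS, was the 1 gene of the 4 higher by 1.5-fold, beside 4.70% of all tested genes. In LIPUS, Pdpn was at 402 FPKM and Cd44 at 212 FPKM, and Gja1 was slightly lower than in Control, at 170 FPKM. These shifts ran beside the differences described below, and their part in them was not tested. Markers of other lineages were low or listed at 0. Of 6 myeloid and lymphoid markers, 5 were listed at 0 in both groups, Ptprc among them, and Cd68 was at 5.32 FPKM in Control and 1.72 FPKM in LIPUS. The 3 epithelial markers were listed at 0, and of the endothelial pair only Pecam1 was above 0, at 0.496 FPKM in Control.

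PARP proteins transfer ADP-ribose from NAD+ to proteins and nucleic acids. Most of the Parp genes studied here encode enzymes that add a single ADP-ribose unit, and they are known for being induced by interferon together with Dtx3l, Zc3hav1 and Helz2. Interferon receptors signal through the JAK kinases to transcription factor complexes that hold STAT2 and IRF9 and bind the interferon-stimulated response element (ISRE) of such genes. Tonic signalling keeps such genes at a basal level without infection in many cell types, and their products restrict viruses and tune STAT signalling.

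All 8 genes had a lower pooled FPKM in LIPUS than in Control. This is a direction that 49.2% of all tested genes shared. A difference of at least 1.5-fold was used as the mark of a change in size, and 7 of the 8 genes were lower by that much, against 4.71% of all tested genes. Among the 5409 tested genes whose Control FPKM lay within the range of the 8 genes, from 9.94 to 73.7 FPKM, the share was 4.53%. The median log2 ratio of LIPUS over Control was -0.71 over the 8 genes, with a range of -0.89 to -0.27, and 0.00 over all tested genes, of which the middle 95% lay between -0.75 and 0.77. The FPKM summed over the 8 genes was 251 in Control and 162 in LIPUS. In such bulk RNA, fewer cells that express a gene and less RNA per cell cannot be told apart. Because the genes were proposed with results of these data known, the counts describe them and are not independent evidence of a direction.

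**Figure D1:**
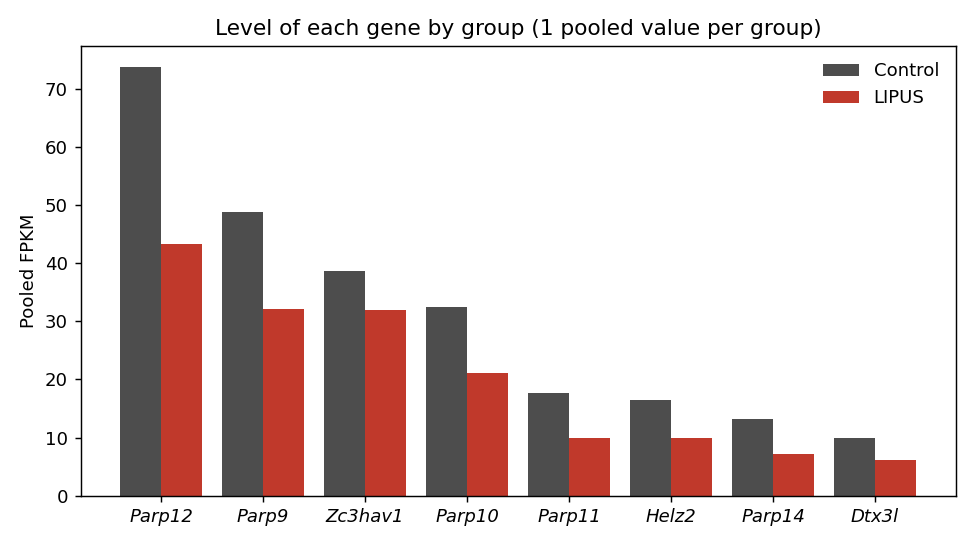
Pooled FPKM (vertical axis, linear from 0) of each of the 8 genes in Control (grey bars) and LIPUS (red bars), in order of the Control level. Each bar is 1 deposited value pooled over 3 cultures, so there are no error bars, and the red bar is the shorter one for every gene, by most for Parp12 (73.7 against 43.3 FPKM) and by little relative to its height for Zc3hav1 (38.6 against 32.0 FPKM).

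The macrodomain proteins and their partner come first. PARP9 carries macrodomains, which bind ADP-ribose, and works as a dimer with DTX3L, a ubiquitin ligase of the Deltex family. PARP14 also carries macrodomains and is a mono-ADP-ribosyltransferase known as a cofactor of STAT6. Parp9 was at 48.8 FPKM in Control and 32.1 FPKM in LIPUS, 1.52-fold lower, and of the 7 genes past 1.5-fold it lay nearest to that mark. Dtx3l, the least abundant of the 8 genes in both groups, was at 9.94 FPKM in Control and 6.17 FPKM in LIPUS, 1.61-fold lower. Both genes of the dimer were thus lower by a like ratio, so that the Parp9 level stood at 4.91 times the Dtx3l level in Control and at 5.20 times in LIPUS, on the per-length FPKM scale.

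Parp14 showed the greatest ratio of the 8 genes. Its FPKM was 13.2 in Control and 7.09 in LIPUS, 1.86-fold lower (log2 ratio -0.89), which placed it at rank 115 of the tested genes counted from the lowest ratio. Parp9, with a log2 ratio of -0.61, was at rank 360. The Parp9 level was 3.71 times the Parp14 level in Control and 4.52 times in LIPUS. The pooled FPKM hold no error of these ratios, and the authors' own comparison columns were not used. Whether the 3 genes differ from each other in their response was therefore not tested.

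These 3 genes lie together on chromosome 16 of GRCm38. By the GENCODE M21 annotation, Parp14 (ENSMUSG00000034422) runs from 35832874 to 35871544 on the minus strand, Dtx3l (ENSMUSG00000049502) from 35926511 to 35939151 on the minus strand, and Parp9 (ENSMUSG00000022906) from 35938470 to 35972605 on the plus strand. Dtx3l and Parp9 are transcribed away from each other and overlap head to head by 682 bases. The overlap takes in 458 exonic bases, which make up 9.40% of the exonic length of Parp9 and 8.0% of that of Dtx3l. The libraries kept strand, but whether the FPKM used it is not given in the sources used here, so fragments from the overlap could belong to either gene. Cufflinks treated both genes as 1 locus together with Kpna1 and Gm15564, the latter an antisense gene listed at 0.

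The next gene on that side had a ratio nearer to equality. Kpna1, which encodes a nuclear import receptor and starts 6.14 kb beyond the end of Parp9 on the same strand, was at 19.1 FPKM in Control and 17.3 FPKM in LIPUS, 1.11-fold lower. Fam162a was at 97.0 and 101 FPKM and Ccdc58 at 23.1 and 20.7 FPKM. On the far side of Parp14, Dirc2 was at 9.37 FPKM in Control and 6.55 FPKM in LIPUS, 1.43-fold lower. Between Dirc2 and Parp14 lies Hspbap1, which was not tested, at 2.29 and 1.56 FPKM.

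**Figure D2:**
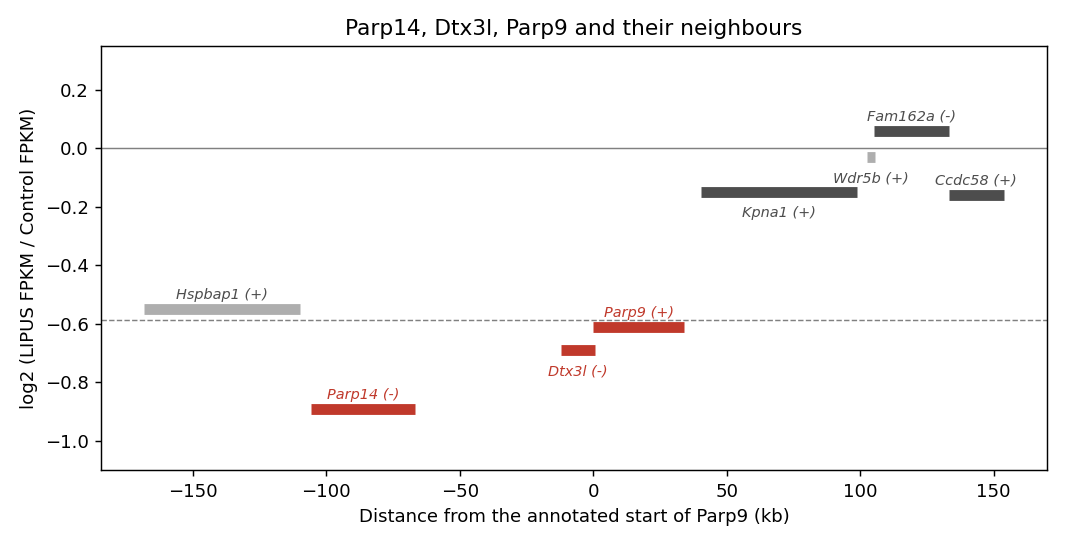
Log2 ratio of LIPUS over Control FPKM (vertical axis) of the genes around Parp9, drawn as bars from gene start to gene end in kb from the annotated start of Parp9 (horizontal axis), with the strand in brackets, the 3 genes of interest in red, tested neighbours in dark grey and genes without a test in light grey. The solid line is equality and the dashed line 1.5-fold lower. Parp14 (-0.89), Dtx3l (-0.69) and Parp9 (-0.61) lie below the dashed line, and Hspbap1 (-0.55, without a test) lies just above it. Kpna1 (-0.15), Ccdc58 (-0.16) and Fam162a (0.06) lie near equality.

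Parp12, Parp11 and Zc3hav1 encode proteins with a WWE domain, a module that can bind ADP-ribose, and PARP12 and ZC3HAV1 also carry CCCH zinc fingers that bind RNA. Parp12 was the most abundant of the 8 genes. It was at 73.7 FPKM in Control and 43.3 FPKM in LIPUS, 1.70-fold lower, and made up 29.4% of the summed FPKM of the 8 genes in Control and 26.8% in LIPUS. Parp11, whose product is a mono-ADP-ribosyltransferase without zinc fingers, was at 17.7 FPKM in Control and 10.0 FPKM in LIPUS, 1.76-fold lower, the ratio next to that of Parp14.

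Zc3hav1 was the exception by size. It encodes ZAP (also called PARP13), which binds CpG-rich viral RNA and lacks transferase activity. Its FPKM was 38.6 in Control and 32.0 in LIPUS, 1.21-fold lower, at rank 1358 of the tested genes from the lowest ratio, and its log2 ratio of -0.27 was the only one of the 8 short of 1.5-fold. Without Zc3hav1 the other 7 genes ranged in log2 ratio from -0.89 to -0.61. Relative to Parp14, the Zc3hav1 level was 2.93 times as high in Control and 4.51 times as high in LIPUS. Both genes thus stand at the ends of the range, and without single libraries the difference between them was not tested.

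Of 7 genes listed as partners of ZAP, 4 were tested, with a median log2 ratio of -0.08. Of these, 2 had a lower and 2 a higher FPKM in LIPUS, beside 49.2% and 50.8% of all tested genes. By 1.5-fold 0 of the 4 were lower and 0 higher, which is near the 4.71% and 4.70% of all tested genes for so short a list. Trim25, the ubiquitin ligase that ZAP needs for its antiviral activity, was at 25.6 FPKM in Control and 21.7 FPKM in LIPUS. N4bp1, an RNA nuclease, was at 10.4 and 7.40 FPKM, 1.41-fold lower. The other 3 were not tested and had low levels. Rnf135, which encodes a ubiquitin ligase of RIG-I signalling, was at 3.65 FPKM in Control and 1.54 FPKM in LIPUS, 2.37-fold lower and the greatest ratio of the list. Khnyn, which encodes the nuclease that acts with ZAP, was at 2.88 and 4.24 FPKM, and the paralogue Zc3hav1l was at 1.58 and 1.56 FPKM.

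These 3 genes lie on chromosome 6 of GRCm38 and are not neighbours of Parp9. Zc3hav1 (ENSMUSG00000029826) runs from 38305286 to 38354603 and Parp12 (ENSMUSG00000038507) from 39086410 to 39118349, both on the minus strand, and Parp11 (ENSMUSG00000037997) from 127446840 to 127494261 on the plus strand. Next to Parp12, at a distance of 1.82 kb, Tbxas1 (thromboxane synthase) differed in the other direction. Its FPKM was 5.50 in Control and 8.08 in LIPUS, 1.47-fold higher. Parp11 and Zc3hav1 had no tested gene within 100 kb.

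Since many interferon-induced genes carry response elements in their promoters, the sequence before the start site was searched in the RefSeq promoter table of GRCm38.p6, which covers 250 bases before and 50 bases after each start. It holds windows for 5 of the 8 genes, Parp11 with a pair of starts, and none for Parp9, Parp10 or Parp14. The ISRE core, which is GAAA, a pair of free bases and GAAA again, and the gamma-activated sequence (GAS) TTCNNNGAA were searched on both strands. Both were found in 1 gene, Parp11, at its upstream start. The ISRE core was present in 3.44% and the GAS motif in 8.30% of all 32851 windows. In Parp11 the ISRE core GAAATCGAAA reads on the minus strand, from 44 to 35 bases before the start, and the GAS motif TTCTTGGAA, which reads on both strands, from 37 to 29 bases before it, so that the motifs overlap. A match is a description of letters and not a bound site, and a window without these letters says nothing about the factors. The last 100 bases before the start are shown for the genes in which they overlap no annotated exon, to set the Parp11 window beside windows without a match. Each reads 5′ to 3′ on the strand of the gene, and capitals mark both motifs.

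Parp11 (chr6:127446740-127446839, plus strand): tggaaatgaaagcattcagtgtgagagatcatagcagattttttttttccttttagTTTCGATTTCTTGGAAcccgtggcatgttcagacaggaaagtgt
Parp12 (chr6:39118350-39118449, minus strand): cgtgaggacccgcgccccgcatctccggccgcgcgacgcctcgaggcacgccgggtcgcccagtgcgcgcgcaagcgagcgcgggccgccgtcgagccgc
Zc3hav1 (chr6:38354604-38354703, minus strand): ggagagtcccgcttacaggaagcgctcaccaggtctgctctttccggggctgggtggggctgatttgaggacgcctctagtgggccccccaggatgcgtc
Helz2 (chr2:181242028-181242127, minus strand): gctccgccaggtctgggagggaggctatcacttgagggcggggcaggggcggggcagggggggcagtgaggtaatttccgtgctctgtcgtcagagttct

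The windows differ in composition as well. G and C made up 38.0% of the stretch at the upstream start of Parp11. They made up 82.0% for Parp12, 65.0% for Zc3hav1 and 66.0% for Helz2. At the other Parp11 start and at Dtx3l the stretches overlap annotated exons and are not shown. Their shares were 70.0% and 62.0%. Parp11, with both motifs at its upstream start and neither at the other, had a log2 ratio of -0.82. The genes with a window and neither motif, Parp12, Helz2, Dtx3l and Zc3hav1, had log2 ratios of -0.77, -0.73, -0.69 and -0.27. The FPKM is given per gene, so which Parp11 start was used is not known. Whether the motifs go with the ratios was not tested.

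Parp10 encodes a mono-ADP-ribosyltransferase with an RNA recognition motif that was first found as a partner of MYC. It was at 32.4 FPKM in Control and 21.1 FPKM in LIPUS, 1.54-fold lower, just past 1.5-fold as was Parp9. Parp10 (ENSMUSG00000063268) lies on chromosome 15 from 76231174 to 76243441 on the minus strand, and its end overlaps the start of Plec, the gene of the cytolinker plectin, on the same strand. The overlap holds 205 exonic bases, or 4.80% of the exonic length of Parp10, and fragments from it can be assigned to either gene. Plec itself was at 80.7 FPKM in Control and 77.1 FPKM in LIPUS. On the other side, 3.32 kb away, Grina was at 31.8 and 23.6 FPKM, 1.34-fold lower.

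Helz2 encodes an RNA helicase with zinc fingers that is known as a coactivator of the nuclear receptor PPARγ. Its FPKM was 16.4 in Control and 9.85 in LIPUS, 1.66-fold lower (log2 ratio -0.73, rank 219 of the tested genes from the lowest ratio). Helz2 (ENSMUSG00000027580) lies on chromosome 2 from 181227615 to 181242027 on the minus strand and overlaps no other gene. Its nearest tested neighbour, Gmeb2, which encodes a DNA-binding modulator of the glucocorticoid response, was at 13.4 FPKM in both groups.

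The receptors that HELZ2 acts with and their cofactors were listed as 13 genes, of which 8 were tested, with log2 ratios from -0.52 to 0.31. By 1.5-fold 0 were lower and 0 higher, a count near the shares of all tested genes (4.71% and 4.70%). Pparg was at 19.2 FPKM in Control and 23.8 FPKM in LIPUS, and Ppard was at 22.1 and 27.2 FPKM, both slightly higher. Thrap3, which encodes a partner of HELZ2 in PPARγ coactivation, was the most abundant at 103 and 106 FPKM. Ep300, the gene of the acetyltransferase p300, was at 15.7 and 10.9 FPKM, 1.44-fold lower. Ppara was listed at 0 in both groups.

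Helz2 was also set beside other helicases of the Upf1 type, which unwind RNA or DNA. Of 10 such genes, 5 were tested and all 5 had a lower FPKM in LIPUS, as had 49.2% of all tested genes, with a median log2 ratio of -0.20. Only Mov10, an RNA helicase that restricts retroelements, was lower by at least 1.5-fold, 1 of 5 beside 4.71% of all tested genes. It was at 28.2 FPKM in Control and 14.1 FPKM in LIPUS, 2.0-fold lower, a greater ratio than that of Helz2. Helz, the closest relative by name, was at 10.4 and 8.05 FPKM, 1.29-fold lower. Znfx1, which encodes a helicase that senses viral RNA, was at 8.46 and 7.37 FPKM.

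Other tested genes lay within 100 kb of Helz2, Parp9, Parp10, Parp12 and Parp14. Of these 13 genes, 0 were lower and 0 higher by 1.5-fold, beside 4.71% and 4.70% of all tested genes, and a count of 0 among so few genes is near that share. They had a median log2 ratio of -0.06 and a range from -0.52 (Dirc2) to 0.55 (Tbxas1). At a distance of up to 250 kb there were 31 such genes, and 2 of them were lower by 1.5-fold, Sharpin and Mroh1, both near Parp10, again beside 4.71% of all tested genes.

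**Figure D3:**
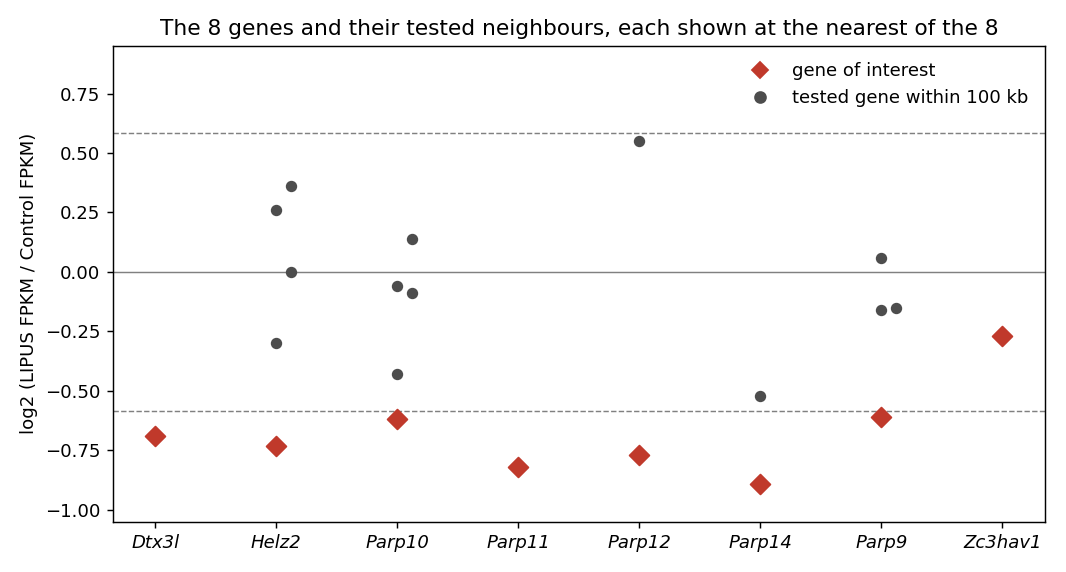
Log2 ratio of LIPUS over Control FPKM (vertical axis) of each of the 8 genes (red diamonds) and of the 13 other tested genes within 100 kb (grey points), each placed at the nearest of the 8 genes. The solid line is equality and dashed lines mark 1.5-fold; 7 diamonds and 0 points lie below the lower dashed line.

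Other ADP-ribosyltransferase genes were mostly at like levels in both groups. Of 10 such genes, 8 were tested, 5 with a lower and 3 with a higher FPKM in LIPUS, beside 49.2% of all tested genes with a lower one, and the median log2 ratio was -0.09. Parp1 and Parp2, which make poly-ADP-ribose chains at DNA breaks, were at 22.0 and 20.3 FPKM and at 23.7 and 22.4 FPKM in Control and LIPUS. Parp3, which also acts in DNA break repair, was the 1 gene of the 8 past 1.5-fold, beside 4.71% of all tested genes, at 31.0 FPKM in Control and 20.0 FPKM in LIPUS. Its log2 ratio of -0.63 lay within the range of the 8 genes. Tiparp, a zinc finger and WWE domain relative of Parp12 known as a target of the aryl hydrocarbon receptor, differed in the other direction, at 17.9 FPKM in Control and 25.3 FPKM in LIPUS, 1.41-fold higher. The other Deltex ligases were tested for Dtx2 and Dtx3 only, with log2 ratios of -0.14 and -0.08.

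Of 11 genes for the removal and reading of ADP-ribose, 8 were tested, 6 with a higher FPKM in LIPUS, beside 50.8% of all tested genes. The median log2 ratio was 0.16. The 6 include Gdap2, which was at 10.4 FPKM in both groups (log2 ratio 0.00). The 2 lower genes, Oard1 and Adprhl2, had log2 ratios of -0.19 and -0.11. Macrod1, a macrodomain hydrolase that removes single ADP-ribose units, was at 5.72 FPKM in Control and 9.98 FPKM in LIPUS, 1.74-fold higher, and was the 1 gene of the 8 tested past 1.5-fold, beside 4.70% of all tested genes in that direction. Parg, which encodes the enzyme that degrades poly-ADP-ribose chains, was at 10.9 and 16.1 FPKM, 1.48-fold higher. Macrod2, a relative of Macrod1, was not tested, at 0.716 and 2.41 FPKM.

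NAD+ is the substrate of every PARP enzyme. Of 16 genes of NAD+ supply and use, only 4 were tested. Nampt, the rate-limiting enzyme of NAD+ salvage, was at 32.3 FPKM in Control and 14.7 FPKM in LIPUS, 2.19-fold lower, and was the 1 gene of the 4 past 1.5-fold, beside 4.71% of all tested genes. Nadk, Sirt1 and Sirt2 had log2 ratios of 0.03, -0.12 and 0.25. Naprt, which opens another route to NAD+ from nicotinic acid, was not tested, at 5.61 and 2.87 FPKM. Nadsyn1, the gene of NAD+ synthetase, was not tested either, at 1.14 and 2.73 FPKM, and Cd38, Bst1, Qprt and Nmrk2 were listed at 0 in both groups.

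Genes of interferon signalling differed among themselves. Of 13 such genes, 12 were tested, with 2 lower and 1 higher by 1.5-fold, beside 4.71% and 4.70% of all tested genes, and a median log2 ratio of -0.08. The 2 lower were Stat2 (23.2 to 12.6 FPKM from Control to LIPUS) and Usp18, a feedback inhibitor of the receptor (85.9 to 43.5 FPKM). Their log2 ratios were -0.88 and -0.98, beside -0.89 for Parp14. Irf1 and Irf7 were just short of 1.5-fold, at log2 ratios of -0.57 and -0.56. The receptor genes Ifnar1, Ifnar2, Ifngr1 and Ifngr2 had log2 ratios from -0.06 to 0.26, and Irf9, the DNA-binding partner of STAT2, was at 24.7 and 23.1 FPKM. Socs1, an inhibitor of JAK kinases, was at 6.71 and 11.0 FPKM, 1.65-fold higher.

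**Figure D4:**
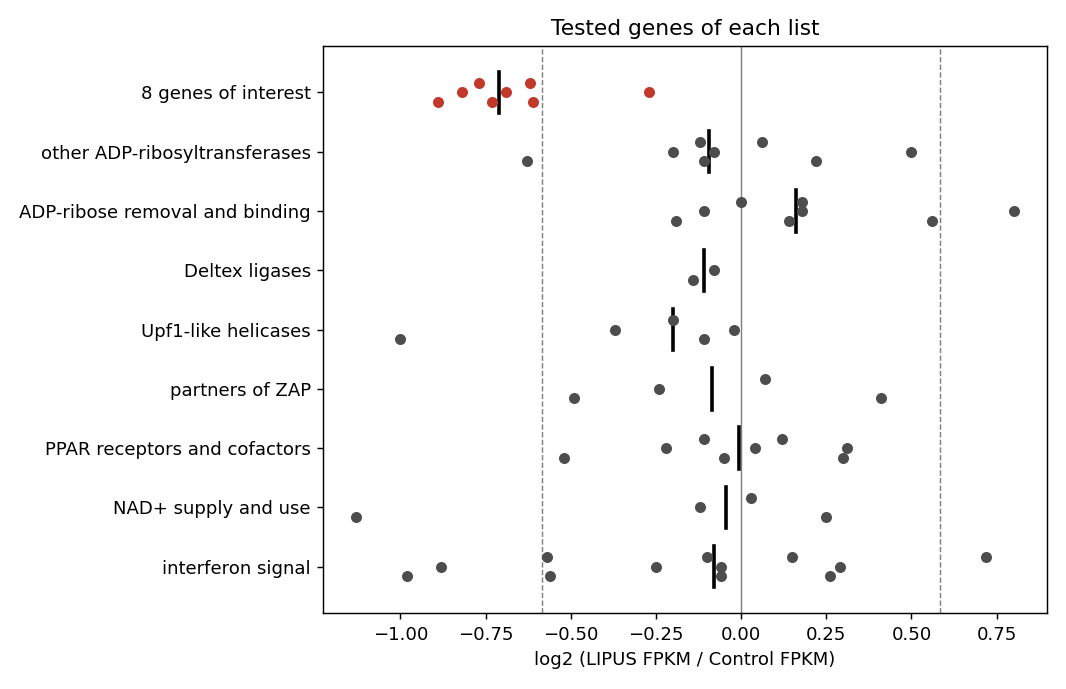
Log2 ratio of LIPUS over Control FPKM (horizontal axis) of the tested genes of each list (rows), with the 8 genes of interest in the top row in red and a black bar at each median; rows are spread vertically for legibility only. Dashed lines mark 1.5-fold; 7 of the 8 genes lie left of the lower dashed line, and the medians of the other lists lie between -0.20 and 0.16.

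With a single ratio per gene, likeness between genes can be given only as the difference of log2 ratios over the 2 groups. Among the 4248 other tested genes with a mean FPKM within 2-fold of the median of the 8 genes (20.3 FPKM), the 5 nearest to their median ratio of -0.71 were Acd, Rbm43, Slfn8, Trmt10a and Papd5, which differed from it by at most 0.0054. Their levels were 21.5 and 13.2 FPKM for Acd, 12.7 and 7.76 FPKM for Rbm43, 20.9 and 12.7 FPKM for Slfn8, 16.9 and 10.3 FPKM for Trmt10a and 18.0 and 10.9 FPKM for Papd5. Slfn8 is a Schlafen family member, and the family is known for interferon-induced genes, while ACD is a telomere protein and TRMT10A a tRNA methyltransferase.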

How the data were processed

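Libraries came from 3 LIPUS and 3 Control cultures, grouped by their titles. The submitters' processing notes name Trimmomatic 0.36 for trimming, TopHat2 2.1.0 over Bowtie2 2.2.6.0 for alignment and GRCm38 as the genome. FPKM was obtained by the authors with Cufflinks, given as version 2.2.1 in the methods and 2.1.1 in the notes. The deposited Cuffdiff table gives an FPKM pooled over the libraries of each group. The depth of each library is not known from it. Its columns of fold change, test statistic, p-value, q-value and significance hold the authors' own comparison and were not used.

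From the pooled FPKM, log2 (LIPUS / Control) was computed for genes with status OK, with no pseudocount, and genes were counted at 1.5-fold in each direction. Positions came from GENCODE M21 (GRCm38) by Ensembl identifier, which matched 99.93% of tested genes, and promoters from RefSeq GRCm38.p6. The 8 genes, the 8 gene lists and the fold mark were chosen with earlier results of these data known. Genes named are these, genes of the lists, cell type markers, tested genes within 100 kb, and the 5 with the most alike ratio. A gene of the interferon list is not reported here and was left out of its counts. Sharpin, Mroh1, Hspbap1 and Gm15564 were named after their values were seen. The alternatives were pseudocounts of 0.1 and 1, minimum FPKM values of 1 and 10, centring on the median, genes above 0 in both groups, 1.25-fold and 2-fold, distances of 50 and 250 kb, and only the promoter bases before the start. Python 3.11.15 with numpy 2.4.6, pandas 2.3.3 and matplotlib 3.10.9 was used, and the counts and motif search were tested on simulated data.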

Additional observations from a re-analysis of the deposited data

How the results depend on the processing

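No paired analysis was possible because the table holds 1 pooled FPKM per group, and for the same reason no replicate could be left out. The 8 log2 ratios were recomputed under the pseudocounts, minimum FPKM values, centring and the wider set of genes, and all 47 values that could be computed were below 0 and within 0.1 of those in the report. The median ranged from -0.73 to -0.64, and 7 of the 8 genes were lower by 1.5-fold under these settings, or 6 with a minimum FPKM of 10, which left out Dtx3l. At a fold mark 25% above 1 the count was also 7, where 13.4% of all tested genes were lower by that much. At 2-fold it was 0, beside 0.945% of all tested genes, since the greatest ratio, that of Parp14, was 1.86-fold. Over the other 8 lists, 5 of 51 tested genes were lower by 1.5-fold (4.71% of all tested genes), 10 of 51 at that lower mark (13.4%) and 1 of 51 at 2-fold (0.945%). The number higher was 2 of 51 at 1.5-fold (4.70% of all tested genes), 5 at the lower mark and 0 at 2-fold. For the lower mark and 2-fold, the share of all tested genes that were higher was not computed. Those counts are therefore not read against a share. A minimum FPKM of 10 left 41 genes, with 1 higher, and taking all genes above 0 in both groups gave 76 genes, with 8 lower and 6 higher. The wider set adds genes that were not tested. Shares over all genes under these settings were not computed, so these counts are given without a background and nothing is read from them. Neighbours lower by 1.5-fold numbered 2 within 250 kb, in place of 0. With only the bases before the start searched, the ISRE core was in 2.98% and the GAS motif in 7.02% of windows. These values are limited by the lack of single libraries, and the depth of each library is not known.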
